A study of Mus musculus with 26 samples.

Results

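Described here are 10 genes of the Notch pathway in motor neuron spheroids: the receptors Notch1, Notch2 and Notch3, the ligands Dll1, Dll3 and Jag1, and the Hes and Hey transcription factors Hes1, Hes5, Hes6 and Hey1. They were chosen by symbol from the deposited tables, where they are 10 of 56941 mouse genes. All 10 were kept by the filter on low counts in both sets of libraries analysed. The cells were HBG3, a mouse embryonic stem cell line with a GFP reporter under the control of the HB9 promoter, HB9 being the motor neuron transcription factor Mnx1; the label gives the genotype as heterozygous blastocysts. In all 5 groups the line had been expanded on feeder cells, differentiated with retinoic acid and purmorphamine (spelled puromorphamine in the labels), given CNTF and GDNF from day 5, and seeded as spheroids on fibrin around day 8. Whether feeder cells were left in the spheroids is not stated. In the mechanical arm, a silicone array moved by magnets at 4 Hz for 30 min a day (actuated, n = 4) was compared with the same kind of array that was never moved (static, n = 4). In the biochemical arm, 6 libraries labelled high intensity and 6 labelled low intensity were compared with 6 biochemical controls. The design text describes medium conditioned by optogenetic muscle that was or was not stimulated, under sample names that the labels do not tie to high and low intensity. Names by intensity are kept for this reason, and that both groups received conditioned medium is assumed. All groups derive from 1 line, and the labels do not say that replicates came from separate cultures, so p-values measure only the spread between these samples.

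Notch signalling passes between touching cells. A ligand of the Delta or Jagged family on one cell binds a Notch receptor on its neighbour, the receptor is cut first by an ADAM protease and then by gamma-secretase, and the freed intracellular part joins the DNA-binding protein RBPJ to switch on genes such as Hes1, Hes5 and Hey1. Those targets repress proneural genes, so that in the developing spinal cord cells with active Notch stay progenitors or become glia while their ligand-rich neighbours become neurons. Hes6 differs from its relatives: it opposes Hes1 and is expressed in cells that are turning into neurons.

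Sequence before the start site is shown for Hes5, a direct target of the receptor, and for Notch1 and Notch2, the receptors with the largest differences below. Each is the 250 bases before the start site, read 5′ to 3′ along the gene, from the RefSeq promoter table (build GRCm38.p6). Capitals mark the RBPJ motif, searched on both strands as TGGGAA and as the longer GTGGGAA, which contains it.
Hes5: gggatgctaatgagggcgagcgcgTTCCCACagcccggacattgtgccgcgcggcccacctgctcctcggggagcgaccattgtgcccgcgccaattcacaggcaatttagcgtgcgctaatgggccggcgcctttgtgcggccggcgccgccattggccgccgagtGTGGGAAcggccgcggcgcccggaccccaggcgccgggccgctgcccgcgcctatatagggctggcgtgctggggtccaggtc
Notch1: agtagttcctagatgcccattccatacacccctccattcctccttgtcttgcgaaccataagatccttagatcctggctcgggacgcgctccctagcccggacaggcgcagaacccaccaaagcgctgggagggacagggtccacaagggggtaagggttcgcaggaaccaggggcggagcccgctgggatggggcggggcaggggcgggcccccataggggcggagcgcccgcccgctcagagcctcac
Notch2: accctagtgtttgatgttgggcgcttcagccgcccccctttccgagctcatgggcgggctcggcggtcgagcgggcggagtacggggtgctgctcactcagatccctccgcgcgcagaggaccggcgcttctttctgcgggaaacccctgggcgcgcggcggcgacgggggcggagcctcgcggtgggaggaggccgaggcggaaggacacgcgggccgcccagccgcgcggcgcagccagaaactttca
The Hes5 window is chr4:154960673-154960922 on the plus strand, the Notch1 window chr2:26503823-26504072 on the minus strand, and the Notch2 window chr3:98013288-98013537 on the plus strand. The Hes5 window held 2 copies of GTGGGAA, one on each strand, the forward one with its first base 83 bases before the start and the reverse one 226 bases before it. Of all 32851 windows in the table, 21.6% held TGGGAA and 5.42% held GTGGGAA at least once. Counted by gene over 27025 genes, the shares were 24.1% and 6.18%. The table had windows for 8 of the 10 genes, all but Hes1 and Hey1, and Hes5 was the 1 gene of these 8 with either motif. These matches describe letters and are not measured binding sites.

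Depth set what could be seen. Total counts ran from 1536 to 13162635 per library, and 5 libraries (control 4, low intensity 6, high intensity 4 and 5, static 3) had fewer than 1000000 counts on protein-coding genes. The other 21, called the deeper libraries, had 1551334 to 13162635 counts: 5 controls, 5 low intensity, 4 high intensity, 3 static and 4 actuated. Array libraries were the deepest, at 7269276 or more. Values per library below are CPM, counts per 1000000 after TMM scaling, in the deeper libraries. A count of 0 allows up to 1.93 CPM in the shallowest of these and up to 0.413 CPM in the shallowest actuated library, counting error only. The 8 motor neuron markers summed to 128 to 297 CPM, and 7 of them passed the low-count filter in the deeper libraries. All 8 had a count in at least 1 of these libraries, but so did 6 of 6 skeletal muscle markers. The 7 general neuronal markers all passed the filter and summed to 2485 to 3946 CPM. The astrocyte markers Gfap, Aqp4, Aldh1l1, S100b and Gja1 summed to 1405 to 3238 CPM, a sum that does not show which of these genes carried it. In such bulk samples fewer cells of a type and less RNA per cell cannot be told apart.

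By mean level per length over the deeper libraries, Notch3 and Notch1 led the set, Hes6 and Hey1 came before Notch2, and Hes1 and Dll3 were last. Levels can be compared between genes only per length, so TPM (transcripts per 1000000, corrected for length) is used for this. Over the 21 deeper libraries, mean TPM was 15.5 ± 7.57 (SD) for Notch3, 14.4 ± 4.35 for Notch1, 12.4 ± 5.10 for Hes6, 9.68 ± 3.16 for Hey1 and 8.58 ± 3.16 for Notch2. The lower 5 were Dll1 at 5.74 ± 3.92, Hes5 at 5.02 ± 2.51, Jag1 at 4.79 ± 2.28, Hes1 at 4.32 ± 2.79 and Dll3 at 2.58 ± 1.97 TPM. Each neighbouring pair in this order lay within the SD of its members, so only the ends of the order stand apart. The place of Notch3 also rests on a TPM per CPM that varied 6.87-fold between these libraries, from 0.0652 to 0.448. The order also differed between groups: on the static array Hes6 was first, at 15.4 ± 4.38 TPM (SD, n = 3), and at low intensity it was second at 15.2 ± 7.60 TPM (SD, n = 5), above Notch3 at 11.6 ± 6.04 TPM. In counts the picture is thinner: the median library had 454 counts for Notch1 and 288 for Notch2, but 45 for Dll1, 19 for Hes5, 15 for Hes1 and 15 for Dll3.

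**Figure D1:**
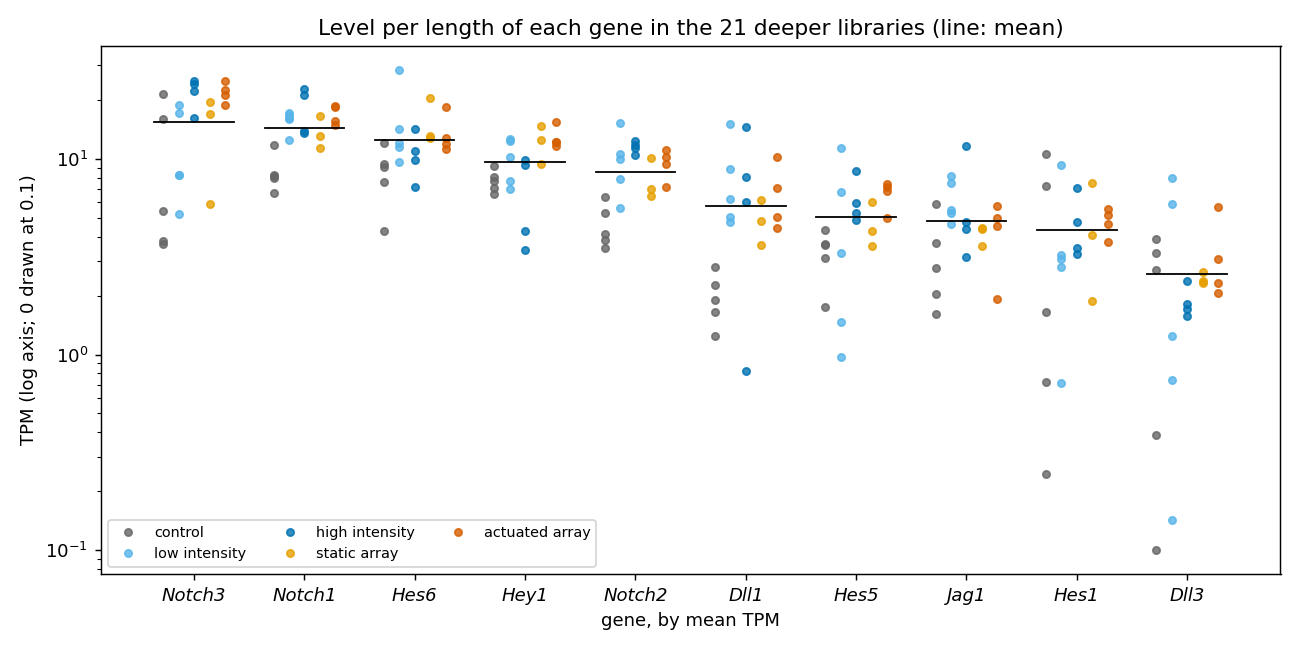
TPM (log axis) of each gene in the 21 deeper libraries, coloured by group, with genes in order of mean TPM (black line). Notch3 and Notch1 lie highest at 15.5 and 14.4 TPM on average and Dll3 lowest at 2.58; the 5 controls sit low for several genes, and 1 control with no Dll3 is drawn at 0.1.

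TPM could not be used in the same way between groups. In the control libraries the most abundant gene, a 7SL RNA, took 220007 to 441334 of each 1000000 TPM, against 95009 to 305816 at high intensity and 102773 to 161202 at low intensity. On log2(TPM + 1) the median of all genes lay above control by 0.52 at high intensity, 0.60 at low intensity and 0.49 on the static array; the part of the 7SL share in this was not tested. For 1 gene the TPM given per CPM also varied between libraries, 2.91-fold for Notch1, 6.87-fold for Notch3 and 11.0-fold for Hes1. Notch3 shows this plainly: control 1 had 56.1 CPM and 3.66 TPM, while control 5 had 47.7 CPM and 21.4 TPM. Comparisons between groups therefore rest on the counts.

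The question put to the biochemical arm was whether the medium changed the cells. At high intensity, none of the 10 genes passed the edgeR quasi-likelihood test at an adjusted p of 0.05. This held in all 26 libraries, where 0.0402% of 14907 genes passed, and in the 21 deeper ones, where 0.462% of 14730 passed. At an unadjusted p below 0.05, edgeR gave 2 of 10 members in all libraries, beside 7.04% of all genes, and 3 of 10 in the deeper ones, beside 15.9% of all genes. The members at that level were Notch1 and Hey1 in both sets and Notch2 in the deeper one. CPM ranges did not overlap for 2 of 10 members, Notch2 and Hey1, beside 3.56% of all genes. The members' median log2 fold change was 0.18 and that of all genes 0.0033, with 6 members above 0 in the deeper libraries.

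Notch1, the receptor most studied in neural progenitors, measured 145, 80.6, 76.9, 84.2 and 93.0 CPM in controls 1, 2, 3, 5 and 6, and 148, 123, 146 and 143 CPM in high-intensity libraries 1, 2, 3 and 6. Every high-intensity library exceeded 4 of the 5 controls, and the groups overlapped because of control 1. The log2 fold change was 0.54 (SE 0.16), with an edgeR adjusted p of 0.101 in the deeper libraries and 0.702 in all 26, where the fold change was 0.61 (SE 0.30). Without control 1 in the deeper libraries the log2 difference was 0.74 (SE 0.13, edgeR adjusted p 0.0414), and then 0.548% of all genes passed. Among 47 fits that each left 1 library out, no other called Notch1 at high intensity.

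Notch2, a receptor also expressed in glia and mesenchymal cells, measured 71.0, 60.3, 52.7, 73.5 and 58.8 CPM in the same controls and 96.1, 107, 118 and 81.8 CPM in the same high-intensity libraries. Here the groups did not overlap. In the deeper libraries the log2 difference was 0.67 (SE 0.20, edgeR adjusted p 0.101), and in all 26 it was 0.43 (SE 0.37, edgeR adjusted p 0.923). High-intensity library 4, one of the shallow ones, had 0 Notch2 counts beside 82 for Notch1. The remaining receptor, Notch3, showed no such difference, at 55.5 ± 12.1 CPM in controls (SD, n = 5) and 59.0 ± 6.94 CPM at high intensity (SD, n = 4).

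Hey1, a repressor switched on by Notch, lay on the other side. It measured 33.1, 31.2, 18.1, 19.7 and 19.7 CPM in controls 1, 2, 3, 5 and 6, and 16.4, 9.32, 8.99 and 15.2 CPM in high-intensity libraries 1, 2, 3 and 6. Among these deeper libraries, the highest at high intensity lay just under the lowest control. The shallow high-intensity libraries 4 and 5 had 5 and 14 Hey1 counts, which were 14.5 and 34.4 CPM on the scaling of all libraries. Controls on that scaling ran from 19.99 CPM in control 3 to 37.0 CPM in control 1, so library 5 lay within their range. The log2 difference was -0.95 (SE 0.25, edgeR adjusted p 0.0737) in the deeper libraries, the lowest adjusted p of any member in any comparison of the 2 sets, and -0.71 (SE 0.34, edgeR adjusted p 0.706) in all 26. Without high-intensity library 6, Hey1 at -1.05 (SE 0.28, edgeR adjusted p 0.0475) and Notch2 at 0.76 (SE 0.21, edgeR adjusted p 0.0493) both passed, as did 2.7% of all genes.

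The call for these 3 genes depended on the tool and on the set of libraries. DESeq2 on the deeper libraries called Notch1 (log2 fold change 0.53, adjusted p 0.0446), Notch2 (0.66, adjusted p 0.0446) and Hey1 (-0.96, adjusted p 0.0232), 3 of 10 members beside 3.13% of all genes. This run was added after seeing the data, and DESeq2 on all 26 libraries called no member. Limma voom with quality weights on the deeper libraries called none of the 3, at adjusted p 0.304, 0.370 and 0.388 in the same order. With only the deeper high-intensity and control libraries in the fit, edgeR called none of them either (adjusted p 0.283, 0.143 and 0.297). Limma on log2(TPM + 1) called Notch1 and Notch2, 2 of 10 beside 11.9% of all genes, on the scale that moved the median gene by 0.52. On TPM rescaled to the protein-coding sum, limma gave Notch1 0.53 (adjusted p 0.245), Notch2 0.80 (adjusted p 0.142) and Hey1 -0.78 (adjusted p 0.151). Hey1 turned to as much as 0.24 and Notch2 to -0.08, neither called, when limma was run on log2(TPM) with a pseudocount in all 26 libraries; Notch1 was above 0 in every alternative run.

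Other ligands and targets were not separated from control at high intensity. Jag1, the Jagged ligand, measured 17.2 ± 4.33 CPM in controls (SD, n = 5) and 21.5 ± 4.22 CPM at high intensity (SD, n = 4). Dll1, the Delta ligand of newborn neurons, spread from 4.68 to 15.0 CPM in controls and from 3.27 to 20.7 CPM at high intensity. Dll3, a ligand-like protein that does not activate receptors on neighbours, spread from 0 to 12.7 CPM in controls and from 3.03 to 5.68 CPM at high intensity. Hes1, a repressor that holds progenitors back from differentiation, measured 8.63, 1.40, 0.385, 1.87 and 2.61 CPM in controls and 7.06, 4.05, 4.50 and 4.13 CPM at high intensity. All 4 high-intensity values lay above 4 of 5 controls, but with 1 to 30 counts behind each of the controls the log2 fold change of 0.70 had an SE of 0.66. Hes5 and Hes6 differed by -0.15 (SE 0.52) and -0.15 (SE 0.28) on the log2 scale.

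Markers of other cell types also differed in level in the same libraries. The 7 cycling-cell markers summed to 216 to 281 CPM in controls and 355 to 1014 CPM at high intensity, with Mki67 (log2 fold change 1.31, edgeR adjusted p 0.0364) and Top2a (1.30, edgeR adjusted p 0.0448) passing in the deeper libraries. The 6 mesenchymal markers summed to 306 to 856 CPM in controls and 772 to 2319 CPM at high intensity, none at 0 and none passing. The 5 smooth muscle and pericyte markers ranged from 179 to 299 CPM and from 181 to 1052 CPM. Neuronal markers ranged from 3542 to 3942 CPM in controls and from 2485 to 3736 CPM at high intensity, and the 10 progenitor markers from 1189 to 1472 CPM and from 1233 to 1430 CPM. Motor neuron markers summed to 206 to 297 CPM in controls and 144 to 232 CPM at high intensity, with overlap. Of the 7 fitted in the deeper libraries, 0 were above 0, with a median log2 fold change of -0.23, and none passed edgeR. Skeletal muscle markers were near 0, at most 4.31 CPM summed in controls and 12.3 CPM at high intensity. The part of these cells in the values of Notch1, Notch2 and Hey1 was not tested.

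**Figure D2:**
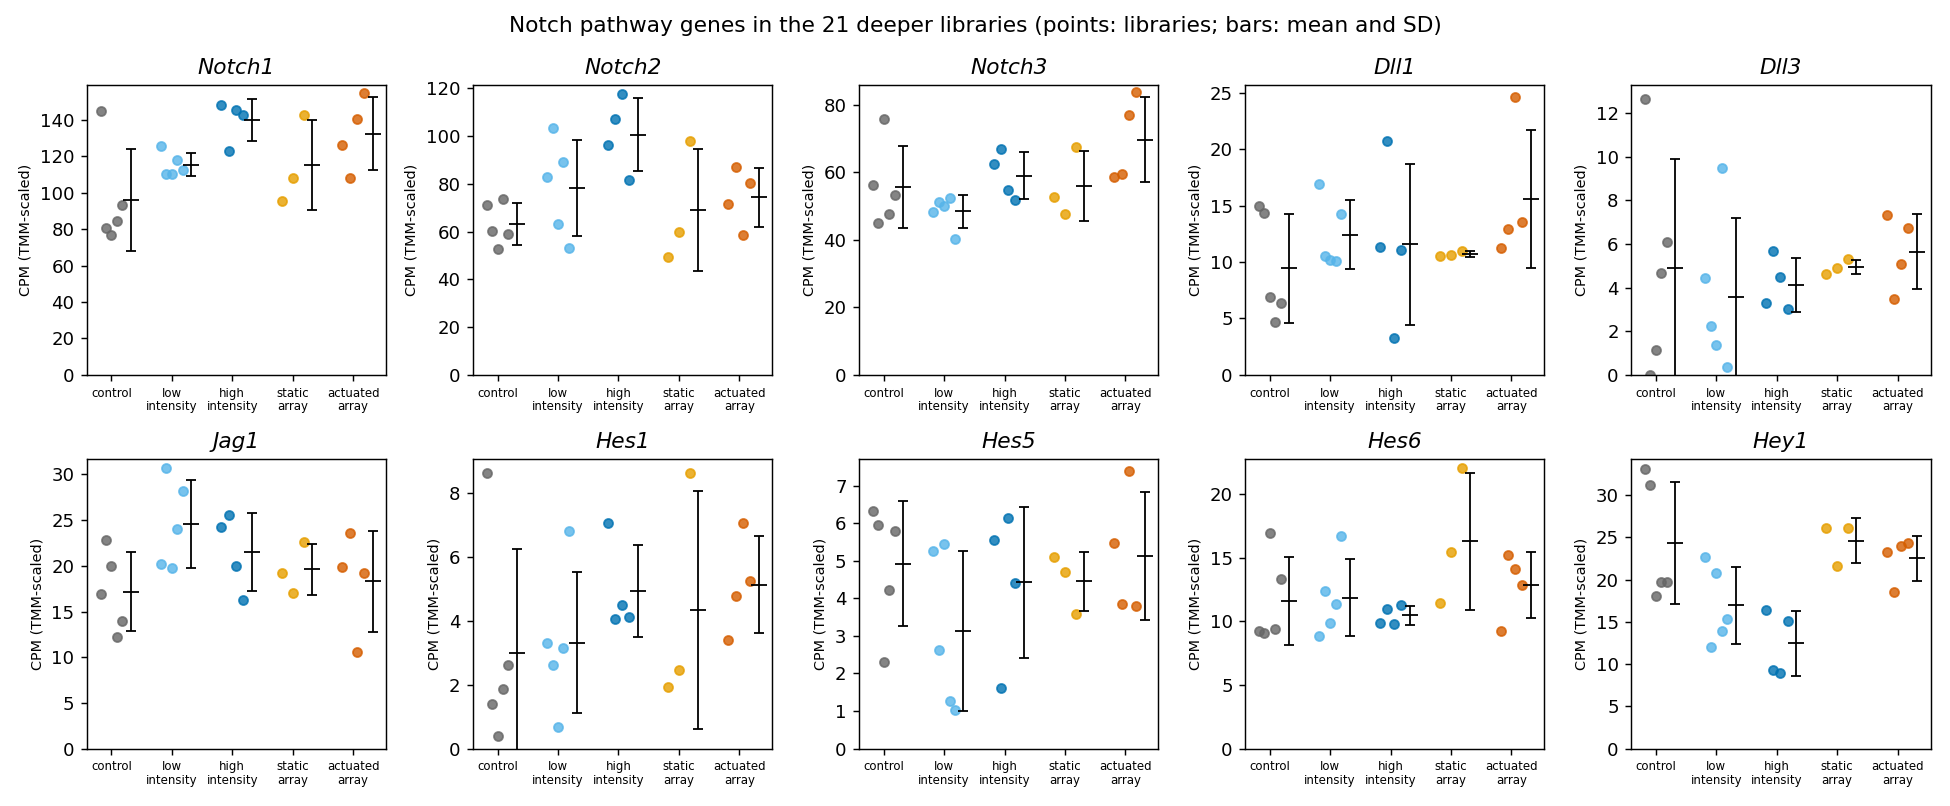
CPM of each gene by group in the 21 deeper libraries; points are libraries, and the horizontal and vertical bars give the mean and SD (cut off at 0 where the SD exceeds the mean). Notch2 at high intensity (81.8 to 118 CPM) lies above all controls (52.7 to 73.5), and Hey1 (8.99 to 16.4) below all controls (18.1 to 33.1).

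At low intensity the group means of Notch1, Notch2, Hes1 and Hey1 lay between those of control and high intensity. Those of Notch3, Dll1, Dll3, Jag1, Hes5 and Hes6 did not. Notch1, Notch2 and Hey1 had been singled out by their high-intensity values, and both comparisons share the controls. No member passed the edgeR test in all libraries (0.0268% of all genes passed) or in the deeper ones (0.597%). At an unadjusted p below 0.05, edgeR gave 0 of 10 members in all libraries, beside 5.23% of all genes, and 2 of 10 in the deeper ones, beside 15.2%. Those 2 were Jag1 and Hey1. CPM ranges overlapped for all 10 members, where 2.25% of all genes did not overlap.

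Jag1 measured 17.0, 22.8, 19.996, 12.2 and 13.9 CPM in controls 1, 2, 3, 5 and 6, and 20.2, 30.7, 19.8, 24.0 and 28.2 CPM in low-intensity libraries 1 to 5. Of these, 3 low-intensity libraries exceeded every control and the other 2 fell within the control range. The log2 difference was 0.51 (SE 0.23, edgeR adjusted p 0.285) in the deeper libraries. Hey1 measured 22.7, 11.99, 20.8, 13.9 and 15.3 CPM at low intensity, with 3 libraries below every control. It differed from control by -0.51 on the log2 scale (SE 0.23, edgeR adjusted p 0.288).

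Notch1 was uniform at low intensity, at 126, 110, 110, 118 and 113 CPM, above 4 of 5 controls, and differed by 0.26 on the log2 scale (SE 0.15, edgeR adjusted p 0.427). Notch2 ran from 53.1 to 103 CPM and overlapped the controls widely. Limma on log2(TPM + 1) called 3 members here, Notch1, Notch2 and Dll1, beside 30.1% of all genes, on the scale that moved the median gene by 0.60. Dll1 shows the difference between units: its TPM was 1.25 to 2.80 in controls and 4.73 to 15.1 at low intensity, without overlap, while its CPM was 4.68 to 15.0 and 10.1 to 16.9, with overlap. Hes5 had the most negative fitted value of the members at low intensity in the deeper libraries, -0.62 (SE 0.50), from 2 to 19 counts a library. Dll3 was close to it at -0.56 (SE 0.72). In all 26 libraries the most negative was Hey1 at -0.53 (SE 0.34), beside -0.51 (SE 0.68) for Hes5.

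Low intensity also carried marker changes. Top2a (log2 fold change 1.28, edgeR adjusted p 0.0372) and Nes (1.43, edgeR adjusted p 0.0443), an intermediate filament of progenitors and some mesenchymal cells, passed in the deeper libraries. Cycling markers summed to 240 to 676 CPM and mesenchymal markers to 214 to 2475 CPM, against 216 to 281 and 306 to 856 CPM in controls. Motor neuron markers summed to 128 to 200 CPM at low intensity and 206 to 297 CPM in controls, without overlap. Of the 7 motor neuron markers fitted in the deeper libraries, 1 was above 0, with a median log2 fold change of -0.51, and none passed edgeR. The part of these markers' cells in the values of Jag1 and Hey1 was not tested.

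Set directly against each other, high and low intensity gave no member at an adjusted p of 0.05 in edgeR, where 0% of all genes passed in either set of libraries. None passed at an unadjusted p below 0.05 (2.91% of genes in all libraries and 7.68% in the deeper ones), and none had separate CPM ranges (2.63% of genes did). The 3 receptors were on the high side together, by 0.28 (SE 0.16) for Notch1, 0.36 (SE 0.20) for Notch2 and 0.29 (SE 0.16) for Notch3 on the log2 scale in the deeper libraries. Hey1 differed by -0.43 (SE 0.25). The lowest edgeR adjusted p among the members was 0.685, for Notch2. The members' median was 0.27 and that of all genes 0.01.

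Movement of the array, the mechanical comparison, gave no member past the edgeR test, and 0% of all genes passed in either set. At an unadjusted p below 0.05, 0 of 10 members passed edgeR in all libraries (3.86% of genes did) and 0 of 10 in the deeper ones (0.38%). The 1 member whose CPM ranges did not overlap was Dll1, beside 4.33% of all genes. Dll1 measured 10.5, 10.6 and 11.0 CPM on static arrays 1, 2 and 4, and 11.2, 12.96, 24.6 and 13.6 CPM on actuated arrays 1 to 4. The static libraries were almost equal, and actuated library 3 was far above the others. The log2 fold change of 0.54 had an SE of 0.42 (edgeR adjusted p 1), and with the shallow static library 3 and the other shallow libraries in the fit it was 0.06 (SE 0.56).

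Notch3 measured 52.8, 47.6 and 67.5 CPM on static arrays and 58.7, 59.5, 76.8 and 83.7 CPM on actuated ones. The ranges overlapped, and the log2 difference was 0.32 (SE 0.18; adjusted p 1 in edgeR). Notch1 was 115 ± 24.6 CPM on static arrays (SD, n = 3) and 132 ± 20.03 CPM on actuated ones (SD, n = 4), and Hey1 was 24.6 ± 2.63 and 22.5 ± 2.70 CPM. Hes6, the Hes relative of differentiating neurons, measured 11.4, 15.4 and 22.1 CPM on static arrays and 9.27, 15.2, 14.1 and 12.8 CPM on actuated ones, a log2 difference of -0.34 (SE 0.29). Over the 10 members, 7 were above 0 with a median of 0.19, beside a median of -0.00042 for all genes. Astrocyte markers summed to 2321 to 3000 CPM on static and 2033 to 3238 CPM on actuated arrays, and mesenchymal markers to 144 to 740 and 43.4 to 546 CPM. The 8 motor neuron markers summed to 130 to 147 CPM on static and 149 to 195 CPM on actuated arrays, without overlap; 7 of 7 fitted were above 0, with a median log2 fold change of 0.45, and none passed edgeR. Their part in the values of Dll1 and Notch3 was not tested.

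The static array was set against the biochemical controls to compare the platform without movement with the baseline of the biochemical arm. No member passed edgeR in all libraries (0.0134% of genes passed) or in the deeper ones (0.713%), and 0 of 10 did so at an unadjusted p below 0.05 (5.27% and 12.6% of genes). None had separate CPM ranges, against 8.14% of genes. Hes6 had the lowest adjusted p, 0.512 in edgeR, with a log2 difference of 0.49 (SE 0.29), from 9.20, 9.11, 16.9, 9.36 and 13.3 CPM in controls. Static library 4 at 22.1 CPM lay above all controls and the other 2 lay among them. Hey1, whose group mean was below control in both intensity groups, averaged 24.3 ± 7.17 CPM in controls (SD, n = 5) and 24.6 ± 2.63 CPM on static arrays, a log2 fold change of 0.0095 (SE 0.26). In this comparison the motor neuron markers Slc5a7 (-1.88, edgeR adjusted p 0.00392) and Slit2 (-0.88, edgeR adjusted p 0.0333) passed in the deeper libraries, and the summed motor neuron markers were 130 to 147 CPM on static arrays and 206 to 297 CPM in controls. Astrocyte markers summed to 2321 to 3000 CPM against 1405 to 2047 CPM. Oligodendrocyte lineage markers summed to 231 to 519 against 82.4 to 174 CPM, with a median log2 fold change of 1.86, and cycling markers to 335 to 496 against 216 to 281 CPM, with a median of 0.58; none of either list passed edgeR. Their part in the values of Hes6 was not tested. Depth and arm went together here, since the deeper static libraries had at least 7724923 counts and the controls at most 3771637, so these cannot be told apart from the array.

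**Figure D3:**
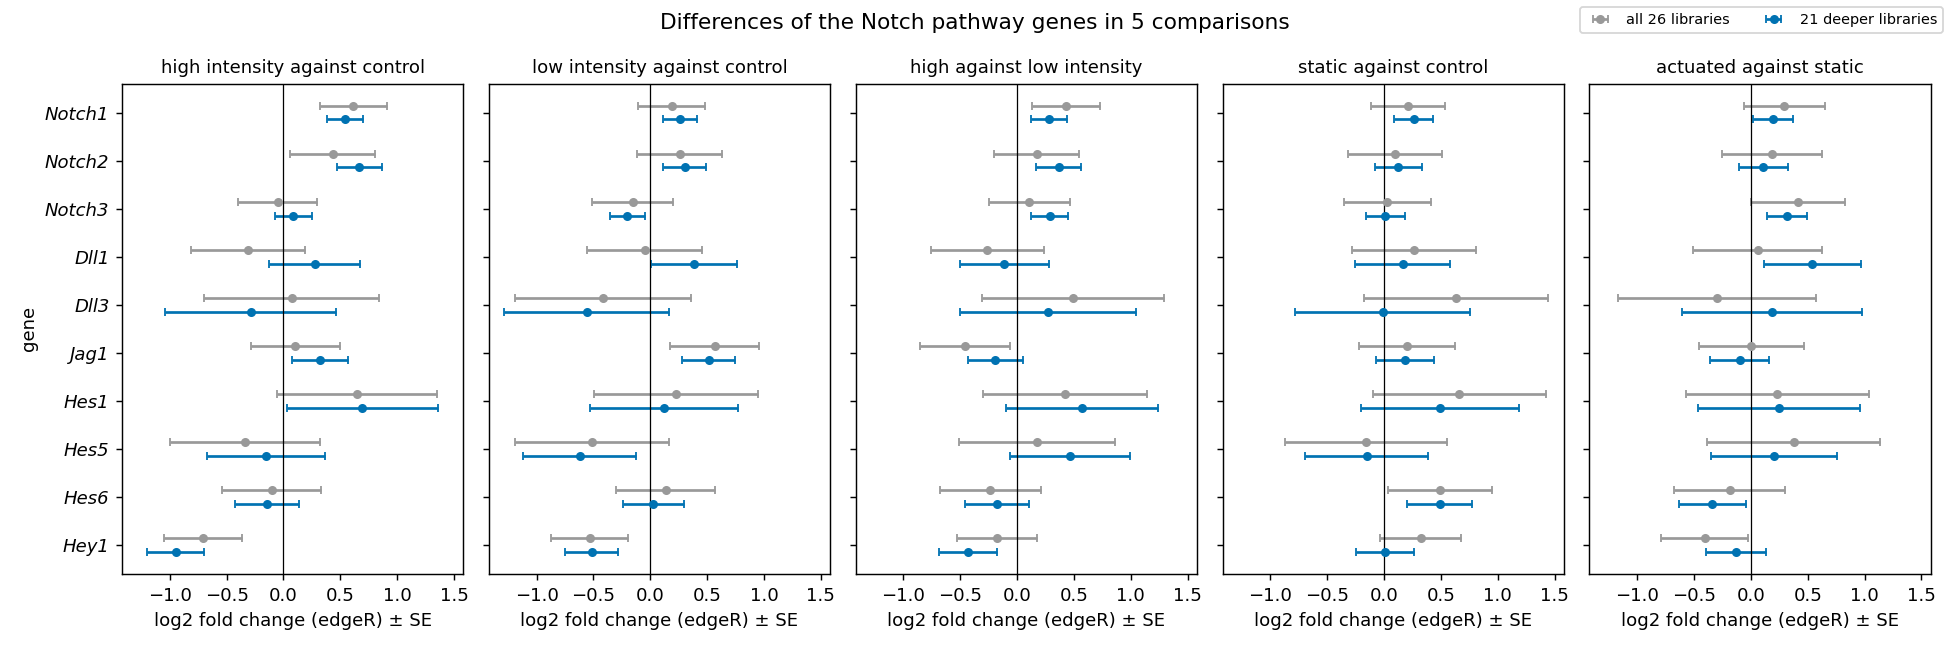
Log2 fold change with SE (edgeR) of each gene in 5 comparisons, in all 26 libraries (grey) and the 21 deeper ones (blue). At high intensity Notch1 and Notch2 lie at 0.54 and 0.67 and Hey1 at -0.95 in the deeper libraries; Dll3, Hes1 and Hes5 have the widest bars.

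Whether actuation and high intensity differed in their effect was tested as an interaction. No member passed in edgeR, where 0% of all genes passed in either set of libraries. At an unadjusted p below 0.05, 0 of 10 members passed in all libraries (6.57% of genes) and 1 of 10, Hey1, in the deeper ones (6.69% of genes). The Hey1 value was 0.82 (SE 0.36, edgeR adjusted p 0.720), the difference between -0.13 (SE 0.26) for actuation and -0.95 for high intensity. Notch2 followed at -0.56 (SE 0.29, edgeR adjusted p 0.763).

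The rest of the pathway was examined through 48 further genes, 43 of which passed the filter on low counts. None of the 43 passed edgeR at an adjusted p of 0.05, in either direction, in any of the 6 comparisons in either set of libraries. At an unadjusted p below 0.05 in the deeper libraries there were 5 of 43 at high intensity, beside 15.9% of all genes, 2 at low intensity, beside 15.2%, and 8 on the static array against control, beside 12.6%. There was 1 for high against low intensity (7.68% of all genes), 1 for the interaction (6.69%) and 0 for actuation (0.38%). Their median log2 fold change was 0.08 at high intensity, -0.03 at low intensity, -0.05 on the static array and 0.01 for actuation, beside all-gene medians of 0.0033, -0.0083, -0.0030 and -0.00042. The 2 genes that came nearest, named because of their values, were Dlk1, a Delta-like protein without the usual activating domain, at 1.03 (SE 0.28, edgeR adjusted p 0.0872) on the static array, and Tle3, a Groucho corepressor, at 0.42 (SE 0.14, edgeR adjusted p 0.126) at low intensity.

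Levels in the rest of the pathway ranged widely, down to 0.0684 TPM for Hes2. By mean TPM over the deeper libraries, the 2 highest other receptors or ligands were Dlk1 at 102 and Jag2 at 4.38. Of the enzymes that put sugars on Notch, Rfng had 20.9 and Lfng 14.9 TPM. Among the ligases that make ligands active, Mib1 had 60.3 and Mib2 19.5 TPM.
Of the proteases, the gamma-secretase subunit Psenen had 44.2 TPM, close to the 42.9 TPM of Adam10. In the nuclear complex Ctbp1 had 101 and Tle3 70.6 TPM, while Rbpj itself had 19.5 TPM. In the list for regulation and turnover of Notch, Aak1 had 51.4 and Fbxw7 37.7 TPM.
Among the remaining Hes and Hey genes, Hey2 had a mean of 16.4 TPM, Heyl had 1.82, and Hes2, Hes3 and Hes7 had at most 0.467 TPM. The mean of Hey2 lay above those of all 4 Hes and Hey members, of which Hes6 was highest at 12.4 ± 5.10 TPM (SD). This difference was not tested. The 5 genes under the filter were Dll4, Mfng, Hes2, Hes3 and Hes7. Of 9 proneural factors, 3 were fitted in all libraries and 4 in the deeper ones, and none passed edgeR in any comparison. Among these Olig2 had 7.01 TPM.

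Values of the members were also compared across the 21 deeper libraries by Spearman's rho of log2 CPM, as a description, since the points share groups, depth and scaling. Of the 45 pairs, Notch1 and Hes1 had the highest rho, 0.81, and 0.74 after each group's mean was removed. Control 1 was the highest control for both, and Hes1 rested on 1 to 70 counts a library. Hes5, on 2 to 67 counts a library, lay opposite to Jag1 (-0.52) and to Hes6 (-0.50), and stayed so within groups (-0.49 and -0.55). Hey1 went with Dll1 (0.57) and Hes5 (0.53) within groups, and with Notch1 at 0.50 within groups but -0.0052 over all libraries.

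**Figure D4:**
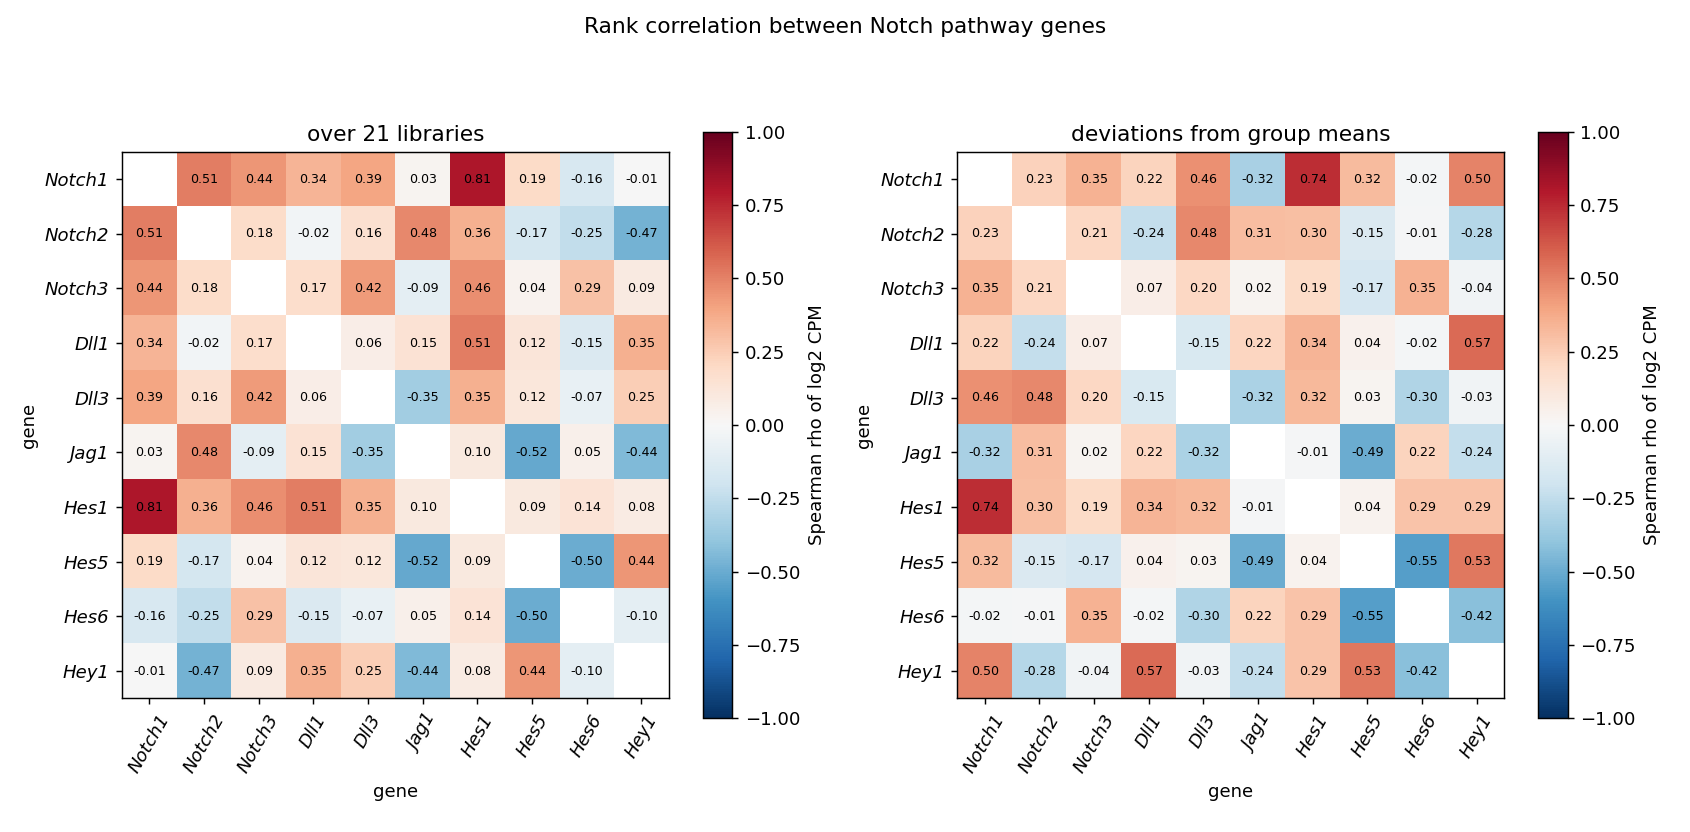
Spearman rho of log2 CPM between the 10 genes over 21 libraries (left) and after removing group means (right). Notch1 with Hes1 is the darkest red cell in both (0.81 and 0.74), and Hes5 with Hes6 and with Jag1 are among the bluest (-0.50 and -0.52 at left).

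Among 11329 other protein-coding genes with a mean of at least 5 CPM, the 3 closest to Notch1 were Zfp36l1 (rho 0.79), Gclc (0.79) and Zfp36l2 (0.77). Closest to Jag1 were Hdlbp (0.88), Tpm1 (0.87) and Fstl1 (0.87), the latter pair known from contractile and mesenchymal cells. Dll1 lay nearest to Gas2 (0.77), Sgsm3 (0.73) and Phf20 (0.71), Hes5 to genes that included Zfp687 (0.74) and Parp8 (0.71), and Hes6 to Cd320 (0.84), Fbll1 (0.77) and Per2 (0.76). Over so many genes and 21 libraries the highest values are chosen from many, and no test was made.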

How the data were processed

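RNA sequencing of 26 libraries was deposited as 2 tables of 56941 genes. The authors deposited estimated counts (written as whole numbers, not scaled for depth) and TPM values, per the file headers. Per the submitters' processing notes the tools were STAR, Salmon, BWA 0.7.12-r1039 and bedtools 2.25.0 and the builds mm10, hg19 and GRCm39, without roles; which of them made the tables is unknown, and the annotation and strand setting are not stated in the sources used. Libraries were made from fragmented total RNA with rRNA cleavage, and no molecular identifiers are mentioned.

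Rounded counts were fitted with edgeR 4.0.16 in R 4.3.3: filterByExpr, TMM, 1 coefficient per group, quasi-likelihood F-test and Benjamini-Hochberg adjustment over all genes per comparison, threshold 0.05. SE were derived from the fold change and F statistic. The fit used all 26 libraries; an alternative used the 21 with over 1000000 protein-coding counts, on which CPM, marker sums (all listed markers, fitted or not) and correlations (log2 CPM, prior count 2) rest. Common dispersion was 0.251 and 0.0923. Other alternatives were DESeq2 1.42.0 and its size factors, limma 3.58.1 (voom with quality weights, log2(TPM + 1), log2(TPM + 0.1)), no filter, at least 1 CPM in 4 libraries, only the groups compared, a replicate block, and each library left out; 7 repeats of these on the deeper libraries were added after seeing the data. The fits were tested on simulated data. No 2 libraries agreed within sampling noise (chi-square per degree of freedom 4.74 to 646 over 325 pairs).

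The 10 genes, the lists and the tests were chosen with earlier results of these data known. Named are the 10 genes; any other pathway or proneural gene that passed, and the 2 of highest mean TPM per list; and the 3 genes of highest rho for Notch1, Dll1, Hes5, Hes6 and Jag1. Dlk1 and Tle3 contrasts and markers that passed were named after their values were seen. Some genes that this rule takes in are not reported here.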

Additional observations from a re-analysis of the deposited data

Results flagged for a closer look

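Within groups of 4 or 5 deeper libraries, 1 library stood apart from the others for 3 of 40 gene and group sets, by the gap to its neighbour as a share of the group's range; chance alone flags about 1 in 20. Notch1 in control 1 measured 145 CPM (503 counts) where the other controls had 76.9 to 93.0 CPM. Hes1 in control 1 measured 8.63 CPM (30 counts), with the next control at 2.61 CPM. Hes1 in high-intensity library 1 measured 7.06 CPM (28 counts), with the next at 4.50 CPM. Both flags in control 1 fall on the pair of genes with the highest rank correlation of the set.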

How the results depend on the processing

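No member passed edgeR in the fit of all libraries. The number that passed moved for 2 comparisons. At high intensity it was 3 with DESeq2 on the deeper libraries and 2 with limma on log2(TPM + 1) of the deeper libraries, and 0 to 2 when 1 library was left out. At low intensity it was 3 with limma on log2(TPM + 1) of the deeper libraries. There Dll1 reversed to 1.505 (limma adjusted p 0.0144) from -0.049 with edgeR in all libraries. The sign also differed with edgeR on the deeper libraries, at 0.39 (SE 0.38), and in 35 of 64 alternatives. The log2(TPM + 1) scale moved the median of all genes by 0.60. The cause of these moves was not tested. In the other 4 comparisons the number was 0 under all alternatives run. Replicate numbers were not shown to pair samples: same-numbered deviations correlated between -0.116 and 0.182 for the arrays. The same-numbered library was the best match in 2 of 3 pairs for the arrays and 1 of 2 for static against control. It was so in 0 of 4 pairs at high intensity, 0 of 4 at low intensity and 0 of 3 for high against low. With a replicate block, 0 members passed in each comparison. Over all genes that block gave 0, 0, 6, 0, 2 and 0 calls in all libraries, and 3, 6, 5, 1, 13 and 1 in the deeper ones, for actuation, high intensity, low intensity, high against low, static against control and the interaction.

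Counts over all genes also depended on the settings. At high intensity they were 6 in all libraries and 68 (45 higher) in the deeper ones, 461 with DESeq2 and 2029 (2019 higher) with log2(TPM + 1) there, 220 without a low-count filter, and 0 with voom. At low intensity they were 4, 88 and at most 5135 (5107 higher, log2(TPM + 1)), and for static against control 2, 105 and at most 936. Without the filter, actuation gave 1137, high against low 107 and the interaction 3193, against 0 each. Members' fold changes under alternatives were sorted against the fit of all libraries and its SE. Of these, 3749 kept their direction and side of the threshold, or changed sign while moving by at most 1 SE. Another 66 changed sign and moved by more than 1 SE without a call. A further 10 gained a call and 1 reversed with a call. Depth limits Dll3, Hes1 and Hes5 most, with SE of log2 fold changes up to 1.09 in the deeper libraries.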

Other observations

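The 5 shallow libraries enter only the fit of all libraries, and their member counts were as follows. Low-intensity library 6, with 1536 counts in all, had 0 counts for each of the 10 genes. High-intensity library 4 had 82 counts for Notch1, 5 for Hey1 and 0 for the other 8. High-intensity library 5 had 42 for Notch1, 34 for Notch2, 21 for Notch3, 14 for Hey1, 6 each for Dll3 and Hes6, 4 for Dll1, 2 each for Jag1 and Hes1 and 0 for Hes5. Control 4 had 31 for Notch1, 19 for Notch2, 15 for Dll1, 9 for Notch3, 8 for Hey1, 2 for Jag1 and 0 for Dll3, Hes1, Hes5 and Hes6. Static library 3 had 54 for Notch1, 34 for Notch2, 33 for Hey1, 25 for Notch3, 22 for Dll1, 10 for Dll3, 8 for Jag1, 5 for Hes6, 3 for Hes1 and 1 for Hes5. On the scaling of all libraries Dll1 was at 37.7 CPM in static library 3 and 44.2 CPM in control 4, and Hey1 was at 56.6 CPM in static library 3.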
